A study of Mus musculus with 7 samples.

Results

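The Hox genes encode homeodomain transcription factors and are arranged in 4 clusters, HoxA to HoxD, on different mouse chromosomes. Their positions were set here against a list of lamin-associated domains (LADs), stretches of chromatin that contact the protein meshwork lining the inside of the nucleus. The members were all protein-coding genes of the RefSeq table of GRCm38.p6 (mm10) whose symbol is Hoxa, Hoxb, Hoxc or Hoxd followed by a digit. This gave 39 of the 21887 protein-coding genes on the placed chromosomes: 11 in HoxA, 10 in HoxB, 9 in HoxC and 9 in HoxD.

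CUT&RUN, in which a nuclease is tethered to an antibody on chromatin and releases the DNA around the target, was carried out in mouse embryonic fibroblast lines named iMEF, which were established separately from animals of 1 colony. The 7 libraries comprised Lamin B1 and IgG (2 each), H3K14ac (1) and H3K9me2 (1 for each of 2 antibodies), all in this cell type. The name of the domain list gives the genotype as WT, while strain, age and any treatment are not stated, nor is the number of lines behind the list. The results below rest on 1 merged list of 1437 LADs. It has no value per library, so the depth behind each LAD is unknown, no value has a replicate error and no difference was tested. Signal for IgG, the histone marks and any marker of the cell type was not used here, so the LADs were not set against the IgG background and the labelled cell type was not checked.

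Hox proteins give cells their position along the head-to-tail axis and along the limbs. Within a cluster, all genes are numbered by paralogue group, and their order on the chromosome matches the order in which they are switched on in the embryo: low numbers early and toward the head, high numbers late and toward the tail. In cells where they are silent, Hox clusters are textbook targets of Polycomb complexes, which place H3K27me3, whereas LADs are usually associated with H3K9 methylation. Fibroblasts keep part of the Hox code of the body region they came from. Expression was not measured in these data.

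No Hox gene lay in a LAD. By midpoint the count was 0 of 39, where the share over the 21130 protein-coding genes inside the chromosome spans (from the first to the last LAD of each chromosome) was 24.6%. No Hox gene touched a LAD with any of its bases either, where 26.0% of all protein-coding genes did. The 39 genes sit in only 4 places and share their surroundings, so this is a count of 4 loci rather than of 39 independent genes. HoxA, HoxB and HoxC each lay in a LAD-free gap of more than 7 Mb. HoxD lay in a gap of 1.66 Mb, with its nearest LAD 209 kb away.

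The sequences that mark these loci include promoters at the cluster ends that face the nearer LAD. Promoter windows run from 250 bases before to 50 bases after the transcription start and are RefSeq sequences of GRCm38.p6, matched by symbol for 22 of the 39 genes. The windows of Hoxd13 (chr2:74667975-74668274, plus strand), Hoxc4 (chr15:103034145-103034444, plus strand) and Hoxa13 (chr6:52260831-52261130, minus strand) are shown because each gene is the outermost of its cluster on the side of the nearer LAD. They are written 5′ to 3′ with CpG dinucleotides in capitals.
Hoxd13: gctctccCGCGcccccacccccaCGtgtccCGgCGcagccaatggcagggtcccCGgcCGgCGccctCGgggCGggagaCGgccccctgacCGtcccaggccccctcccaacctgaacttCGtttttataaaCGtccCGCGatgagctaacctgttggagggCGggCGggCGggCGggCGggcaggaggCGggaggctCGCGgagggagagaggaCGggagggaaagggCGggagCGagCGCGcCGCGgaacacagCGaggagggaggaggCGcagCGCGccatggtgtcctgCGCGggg
Hoxc4: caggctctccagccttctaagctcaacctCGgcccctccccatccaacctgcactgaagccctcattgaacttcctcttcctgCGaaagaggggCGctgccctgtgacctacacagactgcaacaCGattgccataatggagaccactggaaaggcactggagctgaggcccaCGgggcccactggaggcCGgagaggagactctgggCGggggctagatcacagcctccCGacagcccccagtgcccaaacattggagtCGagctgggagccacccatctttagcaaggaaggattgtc
Hoxa13: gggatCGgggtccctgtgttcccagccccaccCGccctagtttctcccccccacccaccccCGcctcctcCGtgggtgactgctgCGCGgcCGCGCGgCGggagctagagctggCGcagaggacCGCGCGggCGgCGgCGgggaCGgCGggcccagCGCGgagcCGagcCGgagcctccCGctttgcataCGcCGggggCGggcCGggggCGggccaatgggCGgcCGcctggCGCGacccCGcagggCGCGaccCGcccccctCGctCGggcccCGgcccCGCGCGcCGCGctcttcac

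Hoxd13, which shapes the digits, had 37 CpG dinucleotides in its window and a start site 209 kb from a LAD. Hoxa13, its paralogue in HoxA and a gene of the distal limb and genital tubercle, had 45 CpG dinucleotides and a start site 3356 kb from a LAD. Hoxc4, at the anterior end of HoxC, had 9 and a start site 476 kb away. This start site, at 103034395, lies inside the Hoxc4 gene model (103018097 to 103036856) and not at its first base. The start sites of Hoxd13 and Hoxa13 lie at the outer ends of their gene models, so the Hoxc4 window is not of the same kind. Among these 3 windows the CpG-rich ones thus include both the nearest and the farthest start site with all LADs. With LADs of at least 500 kb only, Hoxc4 was the farthest of the 3, since HoxC then lay 7.18 Mb from a LAD.

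The HoxA cluster lies on chromosome 6, with Hoxa13 at its posterior end. Its gap runs from 47129499 to 55616971 and measures 8.49 Mb, the 15th longest of 1416 gaps. On the anterior side of the cluster the LAD is 5.03 Mb away. The LAD beyond Hoxa13, the posterior end, is 3.36 Mb away. HoxA is thus the most central of the 4 clusters in its gap, with its middle at 59.8% of the gap's length and a ratio of 1.498 between the longer and the shorter side.

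The HoxB cluster spans chr11:96194316-96368254 (174 kb), from Hoxb13 to Hoxb1. Its gap, from 93830377 to 108470330 on chromosome 11, measures 14.6 Mb and is the longest on that chromosome and the 4th longest of all. The LAD beyond Hoxb13 is 2.36 Mb away and the one beyond Hoxb1 is 12.1 Mb away. HoxB therefore lies toward 1 side of a very long gap, at 16.7% of its length.

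The HoxC cluster spans chr15:102921131-103036856 (116 kb), from Hoxc13 to Hoxc4. Its gap runs from 96240878 to 103510854 on chromosome 15 and measures 7.27 Mb, the 25th longest. The LAD beyond Hoxc13 is 6.68 Mb away, and the LAD beyond Hoxc4 is 474 kb away. The ratio between both sides is 14.1, the most uneven of the 4, and the middle of HoxC lies at 92.7% of the gap. Both flanking LADs are shorter than 500 kb: with LADs of at least that length HoxC had none on its anterior side, and the nearest on its posterior side was 7.18 Mb away.

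The HoxD cluster spans chr2:74668225-74765142 (96.9 kb), from Hoxd13 to Hoxd1. Its gap runs from 74459676 to 76117170 on chromosome 2, measures 1.66 Mb and ranks 213th. The LAD beyond Hoxd13 is 209 kb away and the LAD beyond Hoxd1 is 1.35 Mb away. The cluster fills 5.85% of its gap, against 1.24% for HoxA, 1.19% for HoxB and 1.59% for HoxC. Counting only LADs of at least 500 kb removes both LADs that flank HoxD. The gap would then measure 9.59 Mb and the nearer LAD would be 2.61 Mb away, slightly farther than that of HoxB.

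**Figure D1:**
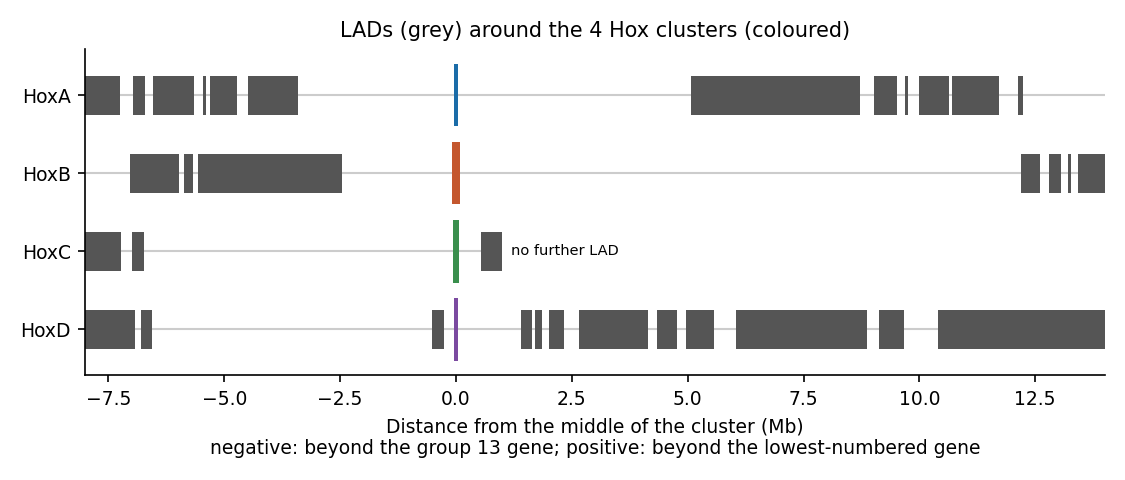
LADs (grey blocks) around the 4 Hox clusters (coloured bars), plotted as distance in Mb from the middle of each cluster, with the group 13 end to the left in every row. LADs come within 209 kb of HoxD on the left and 474 kb of HoxC on the right, whereas HoxA and HoxB have none within 2 Mb.

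The nearer LAD lay beyond the posterior, group 13 end in HoxA, HoxB and HoxD, and beyond the anterior end in HoxC. With LADs of at least 500 kb only, the nearer LAD of HoxD was on the anterior side instead (2.61 Mb, against 6.89 Mb on the posterior side), and that of HoxC on the posterior side (7.18 Mb), with none on the anterior side. The posterior-side distances were 3356 kb for HoxA, 2364 kb for HoxB, 6680.3 kb for HoxC and 209 kb for HoxD. On the anterior side they were 5.03 Mb, 12.1 Mb, 474 kb and 1352 kb in the same order. With all LADs, the full order of the clusters differed between the sides: HoxC had the longest distance on the posterior side and the shortest on the anterior side. HoxA and HoxB changed places as well, but with all LADs both were farther than HoxD on either side. Paralogous ends of the clusters thus did not share a distance to the lamina-associated chromatin.

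Gap lengths were read against all gaps of the list. The median gap measured 240.0 kb, so the HoxA gap was 35.4 times, the HoxB gap 61.0 times, the HoxC gap 30.3 times and the HoxD gap 6.91 times as long. Since long gaps hold more genes, the same lengths were also read per gene. Of the 15923 protein-coding genes outside LADs, 16.8% lay in a gap at least as long as that of HoxA, 4.90% in one at least as long as that of HoxB, and 23.2% for HoxC. For HoxD this share was 75.7%, so its gap was shorter than that of most genes outside LADs.

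**Figure D2:**
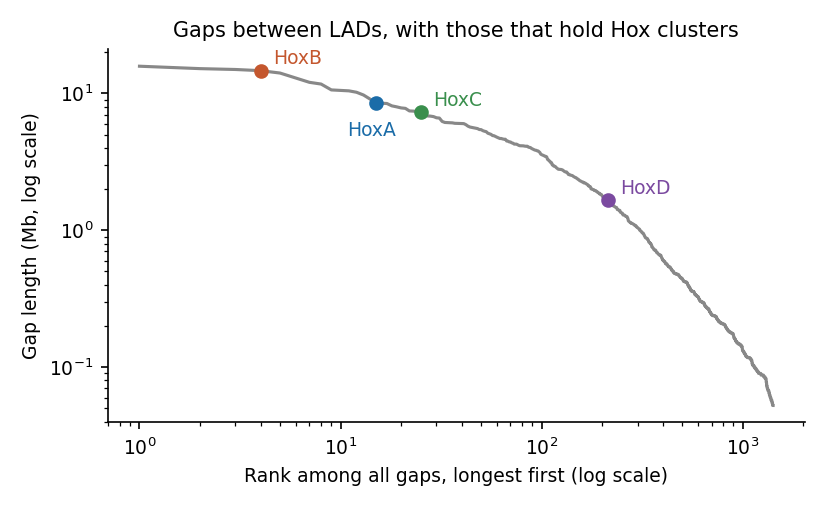
Length in Mb of all 1416 gaps between neighbouring LADs against their rank, both axes logarithmic, with the gaps of the 4 Hox clusters marked. HoxB (rank 4), HoxA (rank 15) and HoxC (rank 25) lie among the longest gaps, and HoxD ranks 213th.

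The distance from each gene's midpoint to the nearest LAD had a median of 2444 kb over the 39 Hox genes, and the lowest value was 210.2 kb. Over all protein-coding genes outside LADs the median was 759.6 kb, with quartiles of 250.3 and 1733 kb. The Hox values fall into 4 separate groups that do not overlap, 1 per cluster, so the median describes the mixture of clusters and not a typical Hox gene.

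In HoxA, the anterior genes Hoxa2 and Hoxa3, which act in the hindbrain and the pharyngeal arches, were 3453 and 3426 kb from the nearest LAD. The central genes Hoxa4, Hoxa5, Hoxa6 and Hoxa7, of the neck and thorax, were at 3426, 3414, 3410.2 and 3399.9 kb. The posterior genes Hoxa9, Hoxa10, Hoxa11 and Hoxa13, which act in the limb and the urogenital tract, were at 3392, 3381, 3373 and 3357 kb. Along HoxA the distance thus changed little, and with all LADs each of these HoxA genes was farther from a LAD than any gene of the other clusters. With LADs of at least 500 kb only, the HoxC genes were the farthest.

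In HoxB, Hoxb13 lies apart from the other 9 genes and was 2365 kb from the nearest LAD. Hoxb9, Hoxb8, Hoxb7, Hoxb6 and Hoxb5 were at 2444, 2452, 2458, 2467 and 2474 kb. Hoxb4 and Hoxb3 were at 2489.6 and 2497 kb, and Hoxb2 and Hoxb1, the hindbrain genes, at 2522 and 2537 kb. Of the genes outside LADs, 14.3% were farther from a LAD than the median HoxB gene, and 8.07% were farther than the median HoxA gene.

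In HoxC, which has no gene of groups 1 to 3, the distance ran the other way along the paralogue groups with all LADs. This direction rests on the anterior LAD of 465 kb and turned with LADs of at least 500 kb only, where the nearest LAD lay beyond Hoxc13. Hoxc4, Hoxc5, Hoxc6 and Hoxc8 were at 483, 495, 506 and 518 kb. Hoxc9, Hoxc10, Hoxc11, Hoxc12 and Hoxc13, the last of which acts in hair and nail, were at 530.1, 542, 555, 573 and 586 kb. Of the genes outside LADs, 59.4% were farther from a LAD than the median HoxC gene.

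With all LADs, HoxD was the cluster nearest to a LAD, and its posterior genes were nearer than its anterior ones. Both statements turned with LADs of at least 500 kb only, where HoxB was nearer than HoxD and the nearest LAD of HoxD lay beyond Hoxd1. Hoxd13, Hoxd12, Hoxd11, Hoxd10 and Hoxd9, the genes of limb patterning, were at 210.2, 217, 224, 230.0 and 239 kb. Hoxd8, Hoxd4, Hoxd3 and Hoxd1 were at 247, 266, 270.5 and 304 kb. The distance at Hoxd1 was thus larger than that at Hoxd13, and 75.7% of genes outside LADs were farther from a LAD than the median HoxD gene. The RefSeq models of Hoxa3, Hoxb3 and Hoxd3 are long and overlap the group 4 gene beside them, so the order of midpoints within these pairs depends on the annotation.

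**Figure D3:**
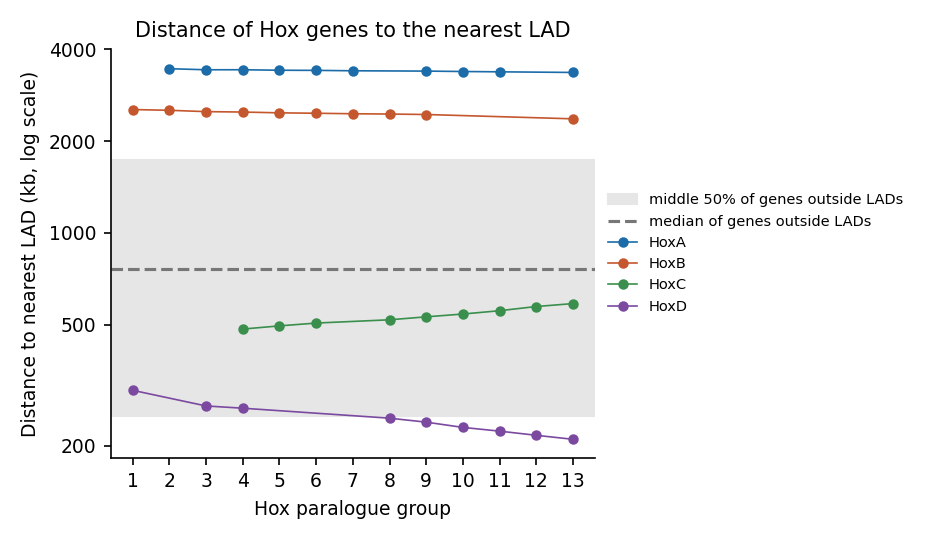
Distance in kb (log scale) from the midpoint of the Hox genes named above to the nearest LAD, by paralogue group and cluster. The grey band and dashed line give the quartiles (250.3 and 1733 kb) and the median (759.6 kb) of all protein-coding genes outside LADs; all plotted genes of HoxA and HoxB lie above the band.

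The 8 LADs that flank the clusters differed in size and content. HoxA was bordered on its anterior side by a LAD of 3.64 Mb (43484510 to 47129498), whose longest gene is Cntnap2, a neuronal adhesion gene of the neurexin family. On the posterior side lay a LAD of 1.08 Mb (55616972 to 56696967) with 4 protein-coding genes, of which Pde1c, a cyclic nucleotide phosphodiesterase, is the longest. HoxB had a LAD of 3.12 Mb (90707887 to 93830376) on its posterior side, with Car10 as the longest of 2 genes. On its anterior side was a LAD of 412 kb (108470331 to 108882828) with Cep112 as the sole protein-coding gene. The 3 longest of the flanking LADs thus bordered the gaps of HoxA and HoxB.

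HoxC was flanked by a LAD of 262 kb (95978379 to 96240877) on the posterior side, which held the predicted gene Gm38469. The LAD on its anterior side measured 465 kb (103510855 to 103975852), held 4 protein-coding genes including Pde1b, and was the last of the 29 LADs of chromosome 15. Beyond Hoxd13 lay a LAD of 267 kb (74192177 to 74459675) without a protein-coding gene and with 3 long non-coding RNA genes. It stands alone, since the next gap on its far side measures 6025 kb. The LAD beyond Hoxd1 measured 242 kb (76117171 to 76359669), held 2 protein-coding genes with Pde11a as the longer, and was followed after 52.5 kb by the next LAD. The LADs beside HoxD and both those beside HoxC were therefore short or near the list's median of 445.0 kb. Of the 578 LADs under 300 kb, 61.1% held no protein-coding gene, so the empty LAD beside Hoxd13 is common for its size.

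In 5 of the 8 flanking borders a protein-coding gene ran across the border (Cntnap2, Cep112, Gm38469, Pde1b and Pde11a). Over all 2832 borders that face a gap, the share was 31.1%. No border was crossed by a Hox gene or by a gene directly beside a cluster.

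The genes directly beside the clusters also lay outside LADs. Skap2, an adaptor protein of immune cells, lay on the anterior side of HoxA, and Evx1, a homeobox gene related to Hox, lay 52.6 kb beyond Hoxa13. Ttll6 was 28.1 kb from Hoxb13 and Skap1 96.3 kb from Hoxb1. Calcoco1 was 199 kb from Hoxc13, and Smug1, a DNA repair glycosylase, was 116 kb from Hoxc4. Evx2 was 6.70 kb from Hoxd13, and Mtx2, a mitochondrial import protein, was 60.7 kb from Hoxd1. Between Hoxd13 and the LAD beyond it, the gene nearest to the border was Lnpk, at 55.2 kb. The genes nearest to the other ends of the gaps were Ttc30a1 in the HoxD gap, 135 kb from its anterior LAD, Cul1 (324 kb) and Adcyap1r1 (116 kb) in the HoxA gap, Utp18 (28.9 kb) and Apoh (55.9 kb) in the HoxB gap, and Arid2 (46.6 kb) and Nckap1l (7.99 kb) in the HoxC gap.

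The gaps differed in gene density. The HoxA gap held 95 protein-coding genes, or 11.2 per Mb, and the HoxD gap 19, or 11.5 per Mb. These are close to the density of all gaps, 12.3 per Mb. The HoxB gap held 392 genes (26.8 per Mb) and the HoxC gap 180 (24.8 per Mb), above the 14.02 per Mb of the 56 gaps of at least 5 Mb. The HoxA gap, which is also longer than 5 Mb, was below that density. LADs held 3.92 per Mb. Hox genes made up 47.4% of the genes in the HoxD gap and 11.6% in the HoxA gap, but 2.55% in the HoxB gap and 5.00% in the HoxC gap. Both dense gaps also held a keratin cluster, with 50 genes of Krt or Krtap symbols in the HoxB gap and 26 in the HoxC gap, and the HoxA and HoxD gaps held none.

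For each cluster the 2 gaps closest in length were taken from the whole list. For HoxB (14.6 Mb) these were a gap on chromosome 15 (50006024 to 64938476) with 3.88 genes per Mb and one on chromosome 9 (52866418 to 68013869) with 12.0. For HoxC they were a gap of 7.36 Mb on chromosome 2 (3067402 to 10427378) with 5.16 genes per Mb and one of 7.41 Mb on chromosome 1 (178079438 to 185494413) with 9.04. The gaps of HoxB and HoxC were thus denser in genes than both gaps of like length. For HoxA they were gaps on chromosome 10 (11968543 to 20433515; 4.73 genes per Mb) and chromosome 1 (85682230 to 94109703; 14.5 genes per Mb). For HoxD they were gaps on chromosome 14 (78086075 to 79763568; 8.35) and chromosome 8 (22010639 to 23688132; 14.9), and a gap on chromosome 18 that was equally long at the resolution of the list held 11.3. The density around HoxA lay between those of its like gaps, and that around HoxD (11.5) within the range of its 3.

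The share of LAD bases in windows around the middle of each cluster was compared with windows around all protein-coding genes outside LADs. Windows were limited to the span of the chromosome, which for HoxC ends with the LAD on its anterior side. Within 250 kb to each side no cluster had a LAD, which also held for 75.02% of the genes. Within 500 kb, HoxD had 24.3% covered and the other clusters 0%. Within 1 Mb, HoxC had 23.3% and HoxD 13.4%, both above the genes' median of 7.87%, and HoxA and HoxB 0%. Within 2 Mb, HoxA and HoxB still had 0%, as did 20.4% of the genes, while HoxC had 15.5% and HoxD 16.6%, below the genes' median of 23.4%. Within 5 Mb, coverage was 13.5% for HoxA, 25.5% for HoxB, 7.75% for HoxC and 29.3% for HoxD, all below the median of 35.9%. HoxD was thus above the middle 50% of genes at 500 kb, HoxA and HoxB were below it at 2 Mb, and HoxA and HoxC below it at 5 Mb.

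**Figure D4:**
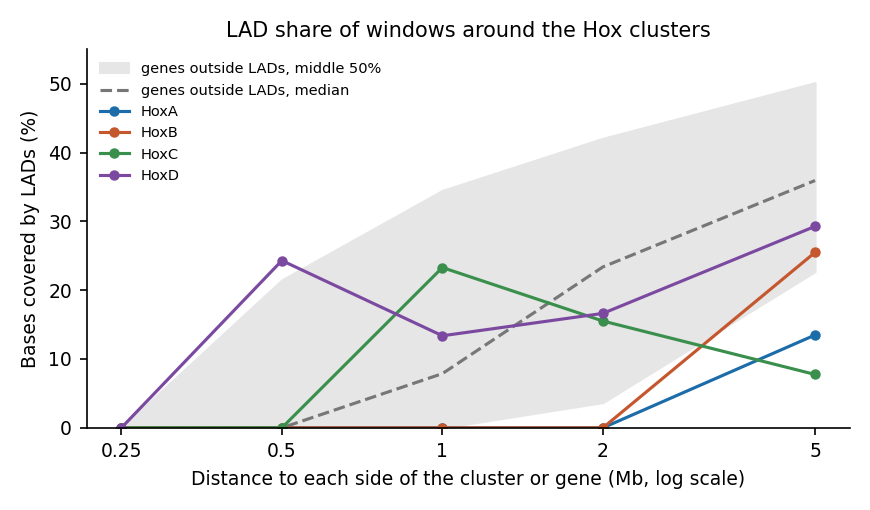
Percentage of bases in LADs within 0.25, 0.5, 1, 2 and 5 Mb to each side of the 4 Hox clusters (coloured), with the median (dashed) and middle 50% (grey) over 15923 protein-coding genes outside LADs. HoxD rises to 24.3% at 0.5 Mb, and HoxA and HoxB, drawn over each other, stay at 0% up to 2 Mb.

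The clusters also carry non-coding genes. Their extents overlapped 25 long non-coding RNA genes, 6 microRNA genes and 1 pseudogene, and no other protein-coding gene. Hotair, a long non-coding RNA of HoxC, was 565 kb from the nearest LAD, Hotairm1 in HoxA 3457 kb and Haglr in HoxD 296.0 kb.

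The 6 microRNA genes belong to 3 families and show how the clusters repeat the same elements at different distances from LADs. RefSeq mature sequences (GRCm38.p6) of the 5p arms of miR-10 and miR-196 and the 3p arm of miR-615 are given 5′ to 3′, with the seed, bases 2 to 8, in capitals. They lie at chr11:96317186-96317208 (miR-10a), chr2:74726074-74726096 (miR-10b), chr11:96265187-96265208 and chr15:102973365-102973386 (both copies of miR-196a) and chr15:103014969-103014990 (miR-615), all on the plus strand, and at chr6:52230129-52230150 on the minus strand (miR-196b).
miR-10a-5p (HoxB): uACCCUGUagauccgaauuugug
miR-10b-5p (HoxD): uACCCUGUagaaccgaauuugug
miR-196a-5p (HoxB and HoxC): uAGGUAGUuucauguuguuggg
miR-196b-5p (HoxA): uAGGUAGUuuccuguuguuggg
miR-615-3p (HoxC): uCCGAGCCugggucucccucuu

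miR-10a and miR-10b, which lie near the group 4 genes, share the seed ACCCUGU, and no other of the 1738 mature entries of the table had it. Mir10a was 2487 kb and Mir10b 266 kb from the nearest LAD. The miR-196 genes lie between groups 9 and 10 or beside group 9 and share the seed AGGUAGU, also found in no other entry. Mir196b (HoxA) was at 3387 kb, Mir196a-1 (HoxB) at 2435 kb and Mir196a-2 (HoxC) at 537 kb. Mir615 in HoxC was at 496 kb. Genes of 1 seed family therefore differed in distance as much as their clusters did.

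Promoter composition was described because LADs and gaps differ in it. CpG observed over expected, the CpG count relative to that from the C and G content, had a median of 0.63 over 24 Hox windows of 22 genes. It ranged from 0.26 at one start of Hoxd11 to 1.02 at Hoxa5. Over all promoters of protein-coding genes outside LADs the median was 0.67 (15868 windows), and over those in LADs 0.21 (4751 windows). A value of at least 0.6 was found in 12 of the 24 Hox windows, where 47.3% of all windows had one, 56.5% outside LADs and 16.4% inside. By this measure the Hox promoters as a group resemble the background share, and they vary widely within HoxA and within HoxD. HoxB and HoxC are covered by 3 windows and 1 window, the latter at a start site inside the Hoxc4 gene model.

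**Figure D5:**
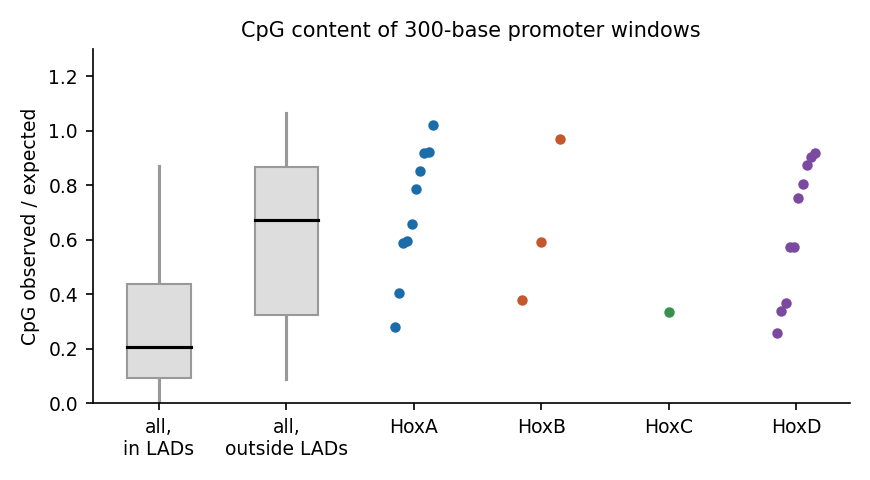
CpG observed over expected in promoter windows of 300 bases: all protein-coding promoters in LADs and outside LADs (boxes, quartiles with the median as a black line; grey lines, 5th to 95th percentile) and each Hox window as a point. Hox windows spread from 0.26 to 1.02, around the median of 0.67 outside LADs.

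The motif TGATNNAT, which Hox proteins are known to bind together with Pbx cofactors, was searched on both strands; it does not overlap the CpG dinucleotide by its fixed letters. It occurred in 4 of the 24 Hox windows, those of Hoxa2, Hoxb8, Hoxb1 and one start of Hoxd11, where 7.55% of all windows held it. The share was 15.9% in LADs and 5.04% outside. The Hoxb1 window (chr11:96365508-96365807, plus strand) is shown with the match in capitals because Hoxb1 is the textbook case of a Hox gene that maintains its own expression in the hindbrain through such sites.
Hoxb1: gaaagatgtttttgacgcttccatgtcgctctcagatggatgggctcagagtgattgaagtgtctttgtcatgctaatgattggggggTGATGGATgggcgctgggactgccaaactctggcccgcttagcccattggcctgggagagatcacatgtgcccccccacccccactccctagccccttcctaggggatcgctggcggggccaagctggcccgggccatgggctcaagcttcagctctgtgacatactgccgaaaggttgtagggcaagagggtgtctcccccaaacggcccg

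A match here is a string of letters, and binding in these cells was not measured.

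Genes that work with or control Hox genes were placed in the same way, from lists drawn up by function. Inside the chromosome spans were 11 Evx, ParaHox (Gsx, Pdx and Cdx), Gbx and Mnx genes, 9 TALE cofactors (Pbx, Meis and Pknox), 22 Polycomb genes and 9 Trithorax genes. None of them had its midpoint in a LAD, where 24.6% of all protein-coding genes did. The median distances of these lists to the nearest LAD were, in the same order, 430 kb, 323 kb, 609 kb and 1664 kb. Listed genes outside the spans were not placed. Each list was spread widely. Farther from a LAD than the median gene outside LADs were 4 of the 11 Evx, ParaHox, Gbx and Mnx genes and 3 of the 9 TALE cofactors. The same held for 9 of the 22 Polycomb genes and 6 of the 9 Trithorax genes.

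Of 12 genes of retinoic acid signalling, the pathway that opens Hox clusters from their anterior end, 3 had their midpoint in a LAD (25%, where 24.6% of all protein-coding genes did). These were Rarb, a retinoic acid receptor (LAD of 182 kb), Rxrg, its partner receptor (LAD of 168 kb), and Aldh1a1, a retinaldehyde dehydrogenase (LAD of 480.0 kb). Each of these 3 genes also extended outside its LAD, and the whole LAD at Rarb lay within the gene. The receptors Rara and Rarg lay in the gaps of HoxB and HoxC. Of 17 genes in other homeobox clusters, 5 lay in LADs (29.4%): Dlx5 and Dlx6 in a LAD of 1287.5 kb on chromosome 6, Nkx2-1 and Nkx2-9 in one of 1280.0 kb on chromosome 12, and Irx4 in one of 575 kb on chromosome 13. The shares of both lists were thus close to that of all genes. Of the 80 placed genes of all lists, 10 lay in 1 of the 4 Hox gaps, Evx1 and Evx2 beside their clusters among them, where 3.25% of all protein-coding genes did (686 of 21130). The difference between the Hox genes and these lists was not tested.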

How the data were processed

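What was measured was the position of genes relative to 1 list of LADs. Per the labels, Lamin B1 CUT&RUN was done on 500000 cells per reaction. The authors deposited the list in BED format: start and end in base pairs, with a score that was 0 in each of the 1437 lines. The submitters' processing notes name Bowtie2 and mm10. The domain caller, threshold, use of IgG and merging of replicates are not given in the sources used here, and that the list pools both Lamin B1 libraries was read from the word merged in its name. Each of the 1437 domains was a multiple of 2.5 kb long to within 125 bp, so differences under about 2.5 kb carry no meaning.

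Gene positions, promoters and miRNAs came from RefSeq tables of GRCm38.p6. A gene was in a LAD by its midpoint; a gap is the interval between neighbouring LADs. Scripts ran in Python 3.11.15 with pandas 2.3.3 and numpy 2.4.6, and were tested on simulated data (200 points with known answers). Every value is a description without a test: the list has no samples to compare. The members and lists were chosen with earlier results of these data known. Genes named are the cluster ends, their neighbours, the genes at gap ends, the longest gene of each flanking LAD, listed genes in LADs, and for each cluster the 2 gaps closest in length, with ties. The non-coding genes, promoter motif and paralogous neighbours were chosen after seeing the files. Some single genes of the clusters and lists are not reported here. Alternatives changed the LAD length minimum, joined LADs, or changed how genes were placed.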

Additional observations from a re-analysis of the deposited data

How the results depend on the processing

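The count of 0 Hox genes in LADs was the same under all 7 alternatives run for it, but most of these could not change it. Removing LADs cannot raise a count of 0, and joining LADs at most 250 kb apart cannot fill gaps of 1657 kb or more. Only the alternatives that changed how genes were placed could have raised the count, and no Hox gene had any base in a LAD. Removing LADs under 50 or 100 kb, or joining LADs at most 100 or 250 kb apart, changed none of the 10 values recomputed. This was fixed in advance, since the flanking LADs measured 242 kb or more and the Hox gaps 1657 kb or more. These settings therefore say nothing on how stable the values are. With LADs of at least 500 kb, the median distance of Hox genes to a LAD was 3357 kb (2444 kb with all LADs), the HoxB gap 15867.5 kb, the HoxD gap 9595 kb and the nearer LAD of HoxD 2609.5 kb away, on the anterior instead of the posterior side. HoxC then had no LAD on its anterior side and gave no gap, so its genes entered that median by their distance to the posterior side alone. Without HoxC, an alternative chosen after seeing the data, the median was 2680.3 kb with LADs of at least 500 kb and 2482 kb with all LADs. By nearest gene end the median was 2441 kb, and by transcription start 2469.7 kb over the 22 genes with a promoter entry (2471 kb by midpoint for the same genes). With Evx1 and Evx2 counted as cluster genes, HoxA was 3299 kb and HoxD 193 kb from the nearer LAD. No paired analysis was possible because the list holds no value per replicate, and for this reason no Lamin B1 replicate could be left out. The depth is unknown, so the support in reads for the short LADs beside HoxC and HoxD cannot be given.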

Other observations

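The 4 Hox clusters arose by duplication of 1 ancestral region, and some neighbouring gene families were copied with them. A set of 10 such families was assembled after the gene content of the gaps had been seen, with 25 members on the 4 chromosomes. None of the 25 lay in a LAD, where 24.6% of all protein-coding genes did, and 24 were in the same gap as their Hox cluster. Because the families were picked from the genes seen there, these counts were largely set by the choice. The Nfe2 family of leucine zipper factors had 1 member in each gap: Nfe2l3 at 697 kb from HoxA, Nfe2l1 at 449 kb from HoxB, Nfe2 at 211 kb from HoxC and Nfe2l2 at 910.4 kb from HoxD. Their distances to the nearest LAD were 4171, 2993, 258 and 427 kb. Nfe2 is thus nearer to a LAD than Nfe2l2, whereas HoxC is farther than HoxD. Nfe2 lies between HoxC and its anterior LAD of 465 kb. With LADs of at least 500 kb only, that LAD drops out and Nfe2 lies more than 7.18 Mb from a LAD. Nfe2l2 then lies between HoxD and an anterior LAD 2.61 Mb from HoxD, so Nfe2 is the farther of the pair.

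The HP1 genes, whose proteins bind methylated H3K9, were at 672 kb from HoxA (Cbx3), 420.4 kb from HoxB (Cbx1) and 155 kb from HoxC (Cbx5). Hnrnpa2b1, Hnrnpa1 and Hnrnpa3, which encode RNA-binding proteins, lay in the gaps of HoxA, HoxC and HoxD. The exception to the shared gap was Atp5g3, which encodes a subunit of the mitochondrial ATP synthase. It lay 756 kb from Hoxd13 on the far side of the LAD of 267 kb that holds no protein-coding gene, while its paralogues Atp5g1 (119 kb from HoxB) and Atp5g2 (250.1 kb from HoxC) lay in the same gaps as their clusters. A LAD thus separated Atp5g3 from HoxD, but with LADs of at least 500 kb only this LAD drops out and Atp5g3 shares the gap of HoxD. Other cell types were not analysed here.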
